A study of Mus musculus with 24 samples.

Results

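The genes described here code for proteins that make, carry or use the amino acid arginine: the arginases Arg1 and Arg2, the inducible nitric oxide synthase Nos2, ornithine decarboxylase Odc1, glycine amidinotransferase Gatm, the arginine transporter Slc7a2 and argininosuccinate synthase Ass1. The members were all probe sets that the array's annotation pairs with these 7 genes alone, 8 of the 12422 probe sets other than controls and 7 of the 8251 genes with a probe set of their own. Arg2 had 2 probe sets and each of the other genes had 1. The set was chosen from measured values of these arrays as well as by function: intensities of Arg1 in C57BL/6J lungs and of Gatm in BALB/c lungs at 72 h were known when it was proposed. All differences at 72 h are therefore given as a description with no test, and tests were made on the arrays of 24 h and 14 d. Part of those results was known too, so a test there is not independent evidence of its direction.

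Arginine stands at a branch point. Arginase splits it into urea and ornithine. Ornithine feeds the polyamines through ornithine decarboxylase and proline, an abundant amino acid of collagen, through ornithine aminotransferase. Nitric oxide synthase turns the same arginine into nitric oxide and citrulline, which Ass1 helps to turn back into arginine, and Gatm uses arginine for the first step of creatine synthesis. Arg1 is best known from the urea cycle of the liver, and in the mouse it is also a classic gene of macrophages activated by interleukin-4 or interleukin-13.

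The series asks about the genetic basis of sensitivity to lung fibrosis. Total RNA of lungs from inbred mice was put on an Affymetrix murine array, with 24 arrays in 12 groups of 2. In each strain, C57BL/6J and BALB/c, animals received intratracheal bleomycin, a DNA-damaging drug used to provoke fibrosis, at 1.5 U per kg, or saline, and lungs were taken at 24 h, 72 h or 14 d. No transgene or other allele is named, and the labels give neither age nor sex. The arrays of a group are marked a and b. Nothing in the labels tells if a and b came from 1 animal or 2, so each p-value measures only the spread between these arrays, which may be technical, and 2 arrays a group limit its precision.

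Some arrays need a caution before any result. H2-Ea, a class II gene that C57BL/6 mice do not express, read 4821 and 3622 in the C57BL/6J saline group of 72 h as labelled, and 89.5 and 48.3 in the corresponding BALB/c group. Those 4 arrays thus went against their strain labels, while the average of both strains at 72 h does not depend on which pair is which. The BALB/c saline 72 h descriptions name bleomycin and those of BALB/c saline 24 h name either treatment, and the titles were followed. The b arrays of saline 24 h stood apart in 11 neutrophil genes, whose intensities summed to 31661 in C57BL/6J and 36014 in BALB/c, against 8199.6 to 9996 on the other saline arrays. The lung epithelial genes Sftpb, Sftpc, Scgb1a1, Ager and Sftpd were measured everywhere, and their sum was lowest, at 575, on BALB/c bleomycin 14 d array b. Both C57BL/6J saline 24 h arrays stood apart: their epithelial sums were 190390 and 124935, against at most 59295 elsewhere, and 3 red cell genes summed to 69122 and 40648, against at most 16209 elsewhere. Theirs are also the only titles that end in s1, a mark the labels do not explain. They are the control for the C57BL/6J effects of bleomycin at 24 h and 1 side of the strain difference after saline at 24 h, so the Arg1 and Odc1 results of 24 h are also given with the saline arrays of 14 d as the control. Of 9 liver genes on the array, Apoa1, Apoa2, Fga, Fgb, Ahsg and Ttr did not exceed 290 on any array, while Alb reached 1737, Cyp2e1 read 634 to 1140 and Hp 1281 to 27217. The 9 summed to 17815 and 28399 on the C57BL/6J saline 24 h arrays and to 3406 to 16101 on the others. For the liver genes at 14 d in C57BL/6J the sums of 14066 and 8119 after bleomycin overlapped those of 12416 and 3768 after saline. C57BL/6J bleomycin 14 d array a has the only title that ends in s2a, a mark also not explained. Its epithelial genes summed to 59295, against 8167 on array b, and its median intensity of 313 was the lowest of all arrays. The highest Arg1 value, 4652, came from this array.

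Promoter windows were at hand for only 3 of the 7 members, and Arg1 and Arg2 were not among these. The windows of Gatm and Odc1 are shown because, as given further on, both genes read higher after bleomycin at 14 d in both strains. They come from RefSeq (mouse build GRCm38.p6) and hold 250 bases before and 50 after the start, at chr2:122611228-122611527 on the minus strand for Gatm and chr12:17544623-17544922 on the plus strand for Odc1. Capitals mark CCAAT in Gatm and GGGCGG in Odc1, on either strand.
Gatm: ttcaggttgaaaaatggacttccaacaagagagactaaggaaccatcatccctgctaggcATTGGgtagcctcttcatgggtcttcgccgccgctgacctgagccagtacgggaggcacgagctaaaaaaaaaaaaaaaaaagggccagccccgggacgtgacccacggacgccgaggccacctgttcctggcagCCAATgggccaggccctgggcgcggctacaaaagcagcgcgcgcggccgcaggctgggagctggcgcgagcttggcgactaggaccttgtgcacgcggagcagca
Odc1: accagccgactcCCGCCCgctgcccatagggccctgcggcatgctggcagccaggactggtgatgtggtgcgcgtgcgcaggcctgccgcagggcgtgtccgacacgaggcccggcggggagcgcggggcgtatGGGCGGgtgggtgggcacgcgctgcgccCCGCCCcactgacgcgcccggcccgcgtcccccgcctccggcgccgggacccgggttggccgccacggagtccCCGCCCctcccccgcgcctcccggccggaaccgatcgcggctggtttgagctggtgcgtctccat
The Gatm window held CCAAT at position -190 on the opposite strand and at -55 on the gene's own strand, counted from the start, and no GGGCGG. The Odc1 window held GGGCGG at -238, -116, -88 and -15 and no CCAAT. Among all promoters, CCAAT occurred in 37.4% and GGGCGG in 35.9% of 32544 mouse promoter windows of the same length, searched on both strands. The TATA box TATAAA, found in 13.6% of windows, the E-box CACGTG, found in 7.17%, and the cyclic AMP element TGACGTCA, found in 1.8%, matched in neither. The Odc1 window was 78% G and C and the Gatm window 60.67%, against a median of 53% over all windows.

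Arg1 (probe set 93097_at) was high on the C57BL/6J bleomycin arrays of 72 h and 14 d and low nearly everywhere else. In C57BL/6J lungs it read 4652 and 2903 at 14 d after bleomycin, against 88.4 and 110 after saline. In BALB/c lungs it read 157 and 333 at 14 d after bleomycin, against 90.1 and 181 after saline. The C57BL/6J groups lay far apart, and the BALB/c groups overlapped. At 14 d bleomycin raised Arg1 in C57BL/6J by 4.30 ± 0.40 on the scale of log2(intensity + 92) (SE; adjusted p 1.89e-05), a 19.7-fold difference that the added 92 makes smaller than the ratio of the intensities. Every adjusted p here comes from a limma model over 8710 probe sets, two-sided, with Benjamini-Hochberg adjustment, and "called" means an adjusted p under 0.05. By size the difference ranked 2 among the 8710.

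In BALB/c at 14 d the Arg1 difference was 0.55 ± 0.40 (SE; limma adjusted p 0.393), with a 95% interval of -0.30 to 1.39. Arg1 was low on these BALB/c arrays, at the 23.2th to 46.7th percentile of each array. The lack of a call there does not show a lack of response. The effect in C57BL/6J exceeded that in BALB/c by 3.76 ± 0.57 (SE; limma adjusted p 0.00244). After bleomycin the C57BL/6J lungs of 14 d stood 3.53 ± 0.40 above the BALB/c lungs (SE; limma adjusted p 3.16e-05). After saline at 14 d the difference between strains was -0.22 ± 0.40 (SE; limma adjusted p 0.745). These Arg1 calls at 14 d stayed under every alternative run, with the C57BL/6J effect between 3.40 and 4.68.

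At 24 h Arg1 showed no called difference between bleomycin and saline. C57BL/6J lungs read 396 and 226 after bleomycin, against 160 and 535 after saline. BALB/c lungs read 125 and 41.9 after bleomycin, against 75.7 and 184 after saline. In both strains the groups overlapped, and the highest saline value was on the b array with the high neutrophil sum. The part of those cells in that value was not tested. The effect was -0.01 ± 0.40 in C57BL/6J (SE; limma adjusted p 0.994) and -0.33 ± 0.40 in BALB/c (SE; limma adjusted p 0.745). With the saline arrays of both 24 h and 14 d, or those of 14 d alone, as the control, the C57BL/6J difference reached up to 1.04 and was still not called. Within bleomycin-treated C57BL/6J lungs Arg1 was 3.26 ± 0.40 higher at 14 d than at 24 h (SE; limma adjusted p 1.22e-04), and in BALB/c 0.93 ± 0.40 higher (SE; limma adjusted p 0.151).

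At 72 h Arg1 read 1168 and 1619 in C57BL/6J lungs after bleomycin, against 80.7 and 47.2 on the saline arrays labelled C57BL/6J. BALB/c lungs read 74.7 and 112 after bleomycin, against 168 and 162 on the saline arrays labelled BALB/c. All 4 of these saline arrays lay below both C57BL/6J bleomycin arrays, so the exchange of labels bears on the size of the C57BL/6J difference and not on its direction. As labelled the log2 difference was 3.24 in C57BL/6J and -0.48 in BALB/c, and the average of both was 1.38 ± 0.28 (SE). Against its own strain's saline arrays of 24 h and 14 d it was 2.41 in C57BL/6J and -0.25 in BALB/c. The average passed 2-fold, as did 1.21% of all probe sets, and these values, which chose the gene, support nothing.

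Ordered by mean intensity, the Arg1 groups began with C57BL/6J bleomycin 14 d at 3778 ± 1237 and C57BL/6J bleomycin 72 h at 1393 ± 319 (SD, n = 2 arrays). C57BL/6J saline 24 h at 347 ± 265, C57BL/6J bleomycin 24 h at 311 ± 120 and BALB/c bleomycin 14 d at 245 ± 125 followed, and these 3 did not differ beyond their spread. The other 7 groups averaged between 63.9 and 165. Over all 24 arrays the highest value was 111 times the lowest, and only 8 arrays exceeded the filter value of 225.7. Of these, 6 were the C57BL/6J bleomycin arrays of the 3 times, and the other 2 were C57BL/6J saline 24 h array b and BALB/c bleomycin 14 d array b.

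**Figure D1:**
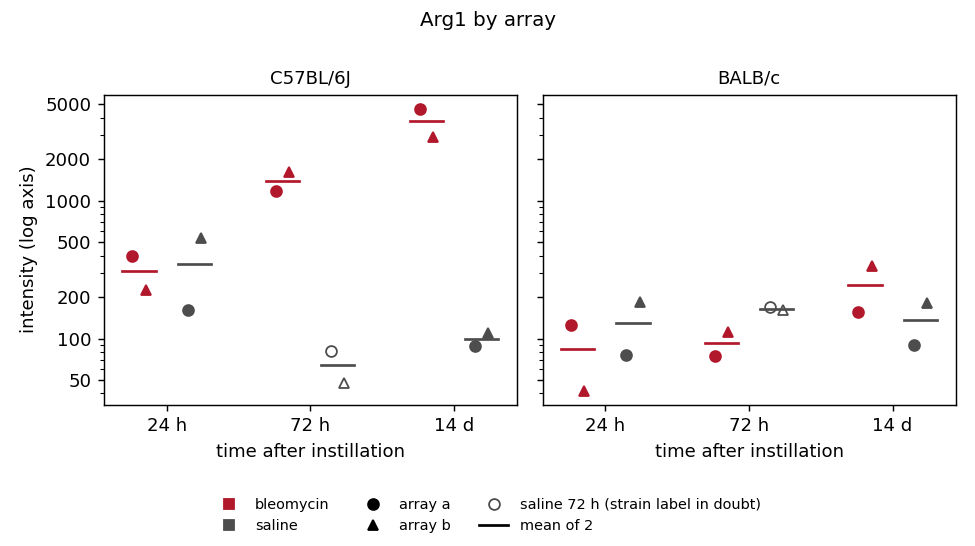
Intensity of Arg1 on a log axis by time after instillation in C57BL/6J (left) and BALB/c (right), bleomycin in red and saline in grey; each point is 1 array, lines are means of 2, and open points are the 4 saline 72 h arrays whose strain markers go against their labels. The C57BL/6J bleomycin arrays of 72 h and 14 d, at 1168 to 4652, lie above all other arrays, which do not exceed 535.

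The summed intensities of macrophage and of neutrophil genes at 14 d lay higher on the bleomycin arrays than on the saline arrays of each strain, while single genes were called in part. The 13 measured macrophage genes summed to 30332 and 42715 in C57BL/6J bleomycin lungs, against 21817 and 23159 after saline, and to 22773 and 26924 in BALB/c bleomycin lungs, against 21779 and 22128. At other times C57BL/6J bleomycin lungs summed to 24585 and 25343 at 24 h and to 25597 and 25797 at 72 h. The C57BL/6J saline lungs of 24 h summed to 28484 and 34643, which overlapped the sums after bleomycin at 14 d. In C57BL/6J at 14 d 4 of the 13 rose (Cd68, Ctsk, Fcgr1 and Msr1) and none fell, where 7.43% of all probe sets were called. In BALB/c 3 of the 13 rose and 1 fell, where 13.3% of all were called, and the called genes were Cd68, Csf1r, Ctsk and Lyz2. Limma called the 14 d effect different between the strains for 0 of the 13, with 1 at an unadjusted p under 0.05. Of 4 measured genes of interleukin-4-activated macrophages (Alox15, Ccl17, Chil3 and Il4ra), limma called 0 at 14 d in either strain, with 2 at an unadjusted p under 0.05 in each, and Chil3 read 15559.6 and 8905 in C57BL/6J lungs after bleomycin, against 9606 and 7459 after saline. The neutrophil genes summed to 12238 and 18962 in C57BL/6J bleomycin lungs, against 8277 and 8908 after saline, and to 14233 and 16032 in BALB/c bleomycin lungs, against 8378 and 9084. Of the 9 neutrophil genes tested, 1 rose in C57BL/6J (Mmp8) and 1 in BALB/c (Ltf). The part of these cells in the Arg1 difference was not tested, and in whole lung more cells and more RNA per cell cannot be told apart.

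Arg2, the mitochondrial arginase, had 1 probe set (98473_at) above the filter. In BALB/c lungs at 14 d it read 529 and 796 after bleomycin, against 309 and 261 after saline. In C57BL/6J lungs it read 426 and 260 after bleomycin, against 120 and 223 after saline. The groups did not overlap in either strain. The differences of 0.98 ± 0.37 in BALB/c (SE; limma adjusted p 0.0860) and 0.72 ± 0.37 in C57BL/6J (SE; limma adjusted p 0.262) were not called, and their difference of -0.26 ± 0.52 (SE; limma adjusted p 0.799) was not called either. Averaged over the strains, a comparison added after the values were seen, Arg2 was 0.85 ± 0.26 higher after bleomycin (SE; limma adjusted p 0.0415). That call was lost when any of 8 single arrays was left out, with adjusted p up to 0.160, and under 4 other alternatives: no filter (0.0619), array weights (0.0905), saline of 24 h and 14 d as the control (0.0808) and without the 4 saline 72 h arrays (0.0592).

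At 24 h Arg2 read 424 and 389 in C57BL/6J lungs after bleomycin, against 193 and 536 after saline. In BALB/c it read 335 and 399 after bleomycin, against 232 and 594 after saline. As for Arg1, the higher saline value of each strain was that of the b array with the high neutrophil sum, and the part of those cells was not tested. At 72 h Arg2 read 279 and 445 in C57BL/6J and 258 and 433 in BALB/c after bleomycin, against 181 to 209 on the 4 saline arrays, all of which lay lower. As labelled the log2 difference was 0.59 in C57BL/6J and 0.58 in BALB/c. Against each strain's own saline arrays of the other times it was 0.43 ± 0.32 in C57BL/6J and 0.03 ± 0.32 in BALB/c (SE). The size in BALB/c thus depended on which saline arrays were the control. The other Arg2 probe set (161246_at) read 17.5 to 214 and never passed the filter, so it was not tested.

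Nos2, which makes nitric oxide in activated macrophages and in epithelium, stayed low. Its probe set (104420_at) read between 62.8 and 215 over the 24 arrays, never above the filter value, and was not tested. In C57BL/6J lungs at 14 d it read 95.7 and 62.8 after bleomycin, against 96.4 and 136 after saline. Both bleomycin values lay below both saline values there. At 24 h it read 95.9 and 98.7 in C57BL/6J lungs after bleomycin, against 169 and 128 after saline, again without overlap. At 72 h it read 122 and 118 in C57BL/6J lungs after bleomycin, against 150 and 121 on the saline arrays labelled C57BL/6J, and these overlapped. BALB/c lungs at 24 h read 108 and 137 after bleomycin, against 136 and 143 after saline. At 14 d they read 158 and 137, against 166 and 81.8. At 72 h they read 116 and 164, against 215 and 67.0 on the saline arrays labelled BALB/c. The BALB/c groups overlapped at each time. These levels are near the bottom of the table, at its 20.3th to 39.7th percentile, and their differences were not tested. Over the 20 arrays other than saline 72 h, Pearson's r of Nos2 with Arg1 was -0.52, a description of arrays that share groups and scaling.

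Odc1, the first enzyme of polyamine synthesis (probe set 160084_at), was higher after bleomycin on most arrays but by small amounts. In C57BL/6J lungs at 24 h it read 1103 and 910 after bleomycin, against 566 and 662 after saline. At 72 h it read 870 and 911 in C57BL/6J and 786 and 772 in BALB/c after bleomycin, against 612 to 690 on the 4 saline arrays. All bleomycin values lay above all saline values in both cases. At 14 d it read 636 and 777 in C57BL/6J after bleomycin, against 499 and 555 after saline. In BALB/c at 14 d it read 629 and 841 after bleomycin, against 556 and 479 after saline. Those groups did not overlap either. BALB/c at 24 h was the exception, with 781 and 827 after bleomycin, against 679 and 930 after saline.

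The Odc1 difference in C57BL/6J at 24 h was 0.64 ± 0.17 (SE; limma adjusted p 0.0520), just short of the threshold, and in BALB/c it was 0.01 ± 0.17 (SE; limma adjusted p 0.982). The difference between these effects was 0.62 ± 0.23 (SE; limma adjusted p 0.398). The C57BL/6J value passed the threshold under 6 of 13 alternatives, including the saline arrays of 14 d as the control (0.82, limma adjusted p 0.00818). Under the rest its limma adjusted p reached 0.101, and without single arrays the difference ran between 0.51 and 0.76. The BALB/c difference at 24 h reached 0.56 under the alternatives and was not called, with a lowest limma adjusted p of 0.0755. Averaged over the strains, the 24 h difference was 0.33 and not called. With the saline arrays of 14 d as the control that average was 0.69 (limma adjusted p 0.00172). The contrast between the strains at 24 h thus depended on the control. At 14 d the differences were 0.36 ± 0.17 in C57BL/6J (SE; limma adjusted p 0.203) and 0.43 ± 0.17 in BALB/c (SE; limma adjusted p 0.0911). Averaged over the strains Odc1 was 0.40 ± 0.12 higher at 14 d (SE; limma adjusted p 0.0352), a call lost without any of 6 single arrays, with adjusted p up to 0.150, and under 3 other alternatives, with adjusted p up to 0.157.

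Gatm, which transfers the amidino group of arginine to glycine (probe set 96336_at), differed both between strains and between treatments. In BALB/c lungs at 14 d it read 1510 and 2386 after bleomycin, against 816 and 937 after saline. In C57BL/6J lungs at 14 d it read 650 and 350 after bleomycin, against 167 and 224 after saline. The groups did not overlap in either strain, and every BALB/c array of 14 d exceeded every C57BL/6J array of 14 d. Bleomycin raised Gatm by 1.04 ± 0.24 in BALB/c (SE; limma adjusted p 0.00960) and by 1.0 ± 0.24 in C57BL/6J (SE; limma adjusted p 0.0156). The difference of these effects was -0.04 ± 0.33 (SE; limma adjusted p 0.951), with a 95% interval of -0.74 to 0.66. The BALB/c call was lost without BALB/c bleomycin 14 d array b (0.73, limma adjusted p 0.155) or saline 14 d array a (0.95, 0.0864). The C57BL/6J call was lost without C57BL/6J bleomycin 14 d array a (0.63, limma adjusted p 0.276) or saline 14 d array a (0.86, 0.114), and with array weights (1.0, 0.0681).

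At 24 h Gatm read 291 and 222 in C57BL/6J after bleomycin, against 274 and 256 after saline, and 908 and 727 in BALB/c after bleomycin, against 582 and 705 after saline. The effects were -0.04 ± 0.24 (SE; limma adjusted p 0.963) and 0.30 ± 0.24 (SE; limma adjusted p 0.599). The strain difference stood out at both times. C57BL/6J minus BALB/c was -1.38 ± 0.24 at 24 h (SE; limma adjusted p 0.00287) and -1.80 ± 0.24 at 14 d (SE; limma adjusted p 1.32e-04) after bleomycin. After saline it was -1.04 ± 0.24 at 24 h (SE; limma adjusted p 0.0228) and -1.76 ± 0.24 at 14 d (SE; limma adjusted p 1.47e-04). Both 14 d calls stayed under every alternative run. The saline call at 24 h, which rests on the C57BL/6J arrays that stood apart in epithelial and red cell genes, was lost when any of its 4 arrays was left out, with adjusted p between 0.0682 and 0.139, and the bleomycin call at 24 h without BALB/c array a (0.0508) or C57BL/6J array b (0.0576).

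At 72 h Gatm read 543 and 551 in C57BL/6J and 1285 and 1562 in BALB/c after bleomycin. The saline arrays of 72 h read 896 and 775 where the label says C57BL/6J and 237 and 178 where it says BALB/c. Over the other arrays saline C57BL/6J lungs read 167 to 274 and saline BALB/c lungs 582 to 937, so Gatm on the 72 h saline arrays went against the strain labels as H2-Ea did. As labelled the log2 difference was -0.53 in C57BL/6J and 2.34 in BALB/c. Against the saline arrays of 24 h and 14 d it was 1.0 in C57BL/6J and 0.84 in BALB/c, so the sign in C57BL/6J depends on those 4 arrays. The average of both strains was 0.90 ± 0.17 as labelled (SE). Within bleomycin-treated lungs Gatm was 1.14 ± 0.24 higher at 14 d than at 24 h in BALB/c (SE; limma adjusted p 0.0100) and 0.72 ± 0.24 higher in C57BL/6J (SE; limma adjusted p 0.0635). The BALB/c call was lost without bleomycin 14 d array b (0.82, limma adjusted p 0.154) or 24 h array b (0.99, 0.124).

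Leaving out saline 72 h, the Gatm groups ordered by mean intensity were BALB/c bleomycin 14 d (1948 ± 619), BALB/c bleomycin 72 h (1424 ± 195), BALB/c saline 14 d (877 ± 85.4), BALB/c bleomycin 24 h (818 ± 128) and BALB/c saline 24 h (643 ± 86.4; SD, n = 2 arrays each). C57BL/6J bleomycin 72 h (547 ± 6.06) and 14 d (500 ± 212) came next, then C57BL/6J saline 24 h (265 ± 12.4), bleomycin 24 h (257 ± 48.3) and saline 14 d (196 ± 40.4). The arrays of BALB/c bleomycin 14 d and 72 h overlapped, as did those of BALB/c saline 14 d and bleomycin 24 h, of C57BL/6J bleomycin 72 h and 14 d, of C57BL/6J saline 24 h and bleomycin 24 h, and of C57BL/6J bleomycin 24 h and saline 14 d. No C57BL/6J array exceeded 650 and 1 BALB/c array, at 582, fell below that.

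**Figure D2:**
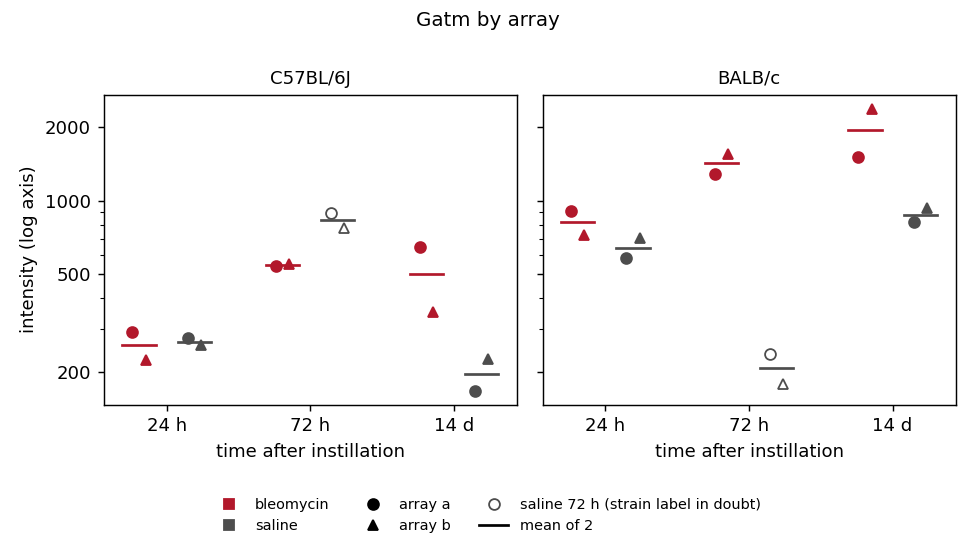
Intensity of Gatm on a log axis by time after instillation in C57BL/6J (left) and BALB/c (right), bleomycin in red and saline in grey; each point is 1 array, lines are means of 2, and open points are the saline 72 h arrays. At 14 d both bleomycin arrays of each strain lie above both saline arrays, and the open points sit at the level of the other strain.

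Slc7a2, a transporter of cationic amino acids at the cell surface (probe set 92736_at), read 131 to 504 over all arrays. At 14 d it read 463 and 504 in C57BL/6J after bleomycin, against 312 and 406 after saline, and 422 and 223 in BALB/c after bleomycin, against 362 and 335 after saline. The C57BL/6J groups did not overlap and the BALB/c groups did, but neither difference was called (0.36 ± 0.31, SE, limma adjusted p 0.547, and -0.13 ± 0.31, 0.815). Ass1, which joins citrulline and aspartate (probe set 97521_at), read 476 to 880. At 14 d it read 741 and 672 in BALB/c after bleomycin, against 509 and 570 after saline, and 659 and 750 in C57BL/6J after bleomycin, against 808 and 580 after saline. The BALB/c difference of 0.34 ± 0.16 (SE; limma adjusted p 0.171) and the C57BL/6J difference of 0.03 ± 0.16 (0.935) were not called. Its highest value was only 1.85 times its lowest.

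**Figure D3:**
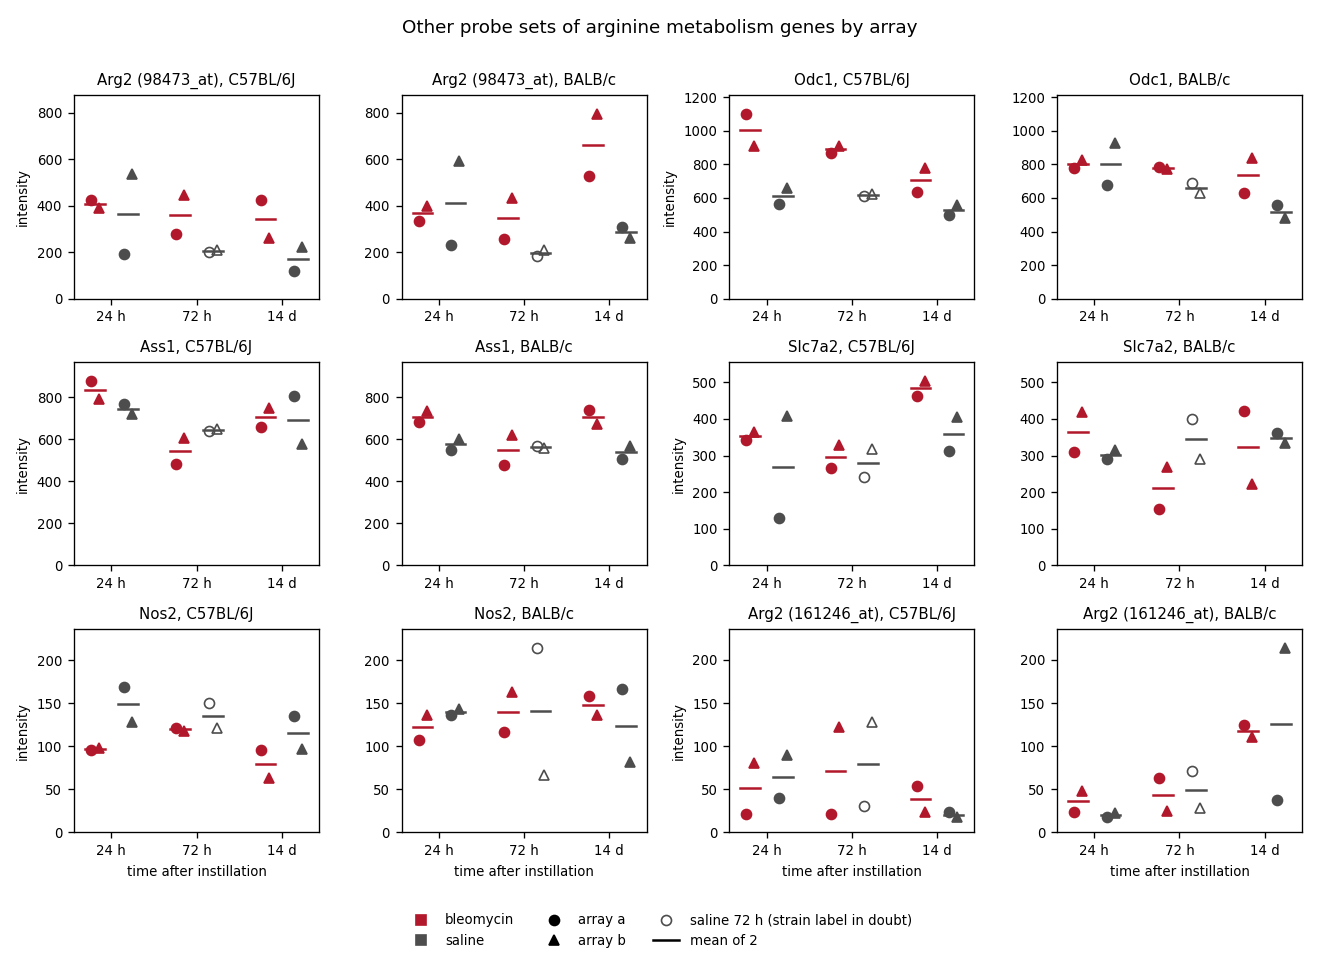
Intensity by array for both Arg2 probe sets, Odc1, Ass1, Slc7a2 and Nos2, with C57BL/6J left of BALB/c in each pair; axes start at 0, bleomycin is red, saline grey, lines are means of 2 and open points are saline 72 h. The bleomycin arrays of Odc1 and of Arg2 (98473_at) lie above the saline arrays at 14 d in both strains, and Nos2 does not exceed 215.

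Of the 6 member probe sets tested, bleomycin at 14 d moved 2 in C57BL/6J (Arg1 and Gatm), where 7.43% of all 8710 were called, and 1 in BALB/c (Gatm), where 13.3% were. The difference between strains of the 14 d effect was called for Arg1 alone, against 7.43% of all. At 24 h 0 of 6 were called in C57BL/6J (2.23% of all), 0 in BALB/c (0.218%) and 0 for the difference between strains (0.023%). The counts at an unadjusted p under 0.05 were 1, 0 and 1 for these, the 1 being Odc1 in both. C57BL/6J minus BALB/c was called for Gatm at 24 h after bleomycin (1.87% of all) and after saline (2.5%) and at 14 d after saline (14.8%), and for Arg1 and Gatm at 14 d after bleomycin (15.7%). The change between 24 h and 14 d after bleomycin was called for Arg1 in C57BL/6J (8.67%) and for Gatm in BALB/c (7.66%). Averaged over the strains 0 of 6 were called at 24 h (3.04%, 1 at an unadjusted p under 0.05) and 4 of 6 at 14 d (12.1%): Arg1, Arg2, Odc1 and Gatm, all higher after bleomycin. The median log2 difference of the 6 at 14 d was 0.54 in C57BL/6J and 0.49 in BALB/c, against -0.07 and 0.04 over all probe sets. The 6 were chosen with results known, and neither count nor median is evidence for the set.

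**Figure D4:**
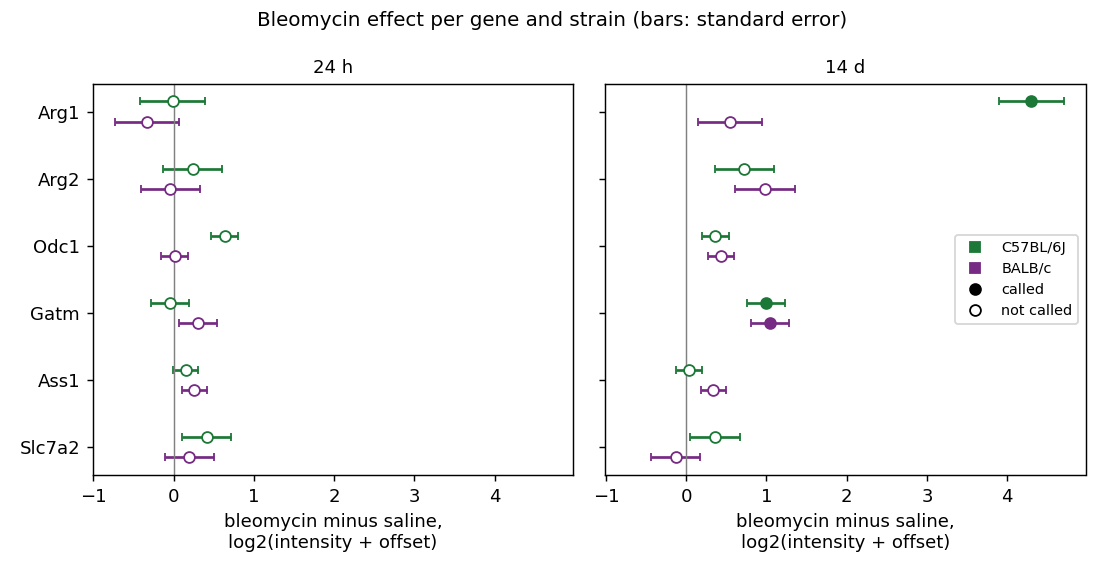
Log2 difference of bleomycin minus saline with its standard error for the 6 tested probe sets at 24 h (left) and 14 d (right), C57BL/6J in green above BALB/c in purple; filled points have an adjusted p under 0.05. Arg1 at 4.30 in C57BL/6J and Gatm at 1.0 in C57BL/6J and 1.04 in BALB/c are the filled points, and at 24 h there are none.

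The other genes around arginine came from 6 lists of 68 genes, of which 43 were on the array and 31 tested. At 24 h limma called 0 of 31 in either strain, with 3 in C57BL/6J and 6 in BALB/c at an unadjusted p under 0.05. At 14 d it called 4 of 31 in C57BL/6J (12.9%, against 7.43% of all probe sets), 3 of 31 in BALB/c (9.68%, against 13.3%) and 7 of 31 for the difference between the strains (22.6%, against 7.43%). In C57BL/6J Ckb, the brain-type creatine kinase, rose at 14 d by 0.90 ± 0.22 (SE; limma adjusted p 0.0190). Of the 31, 3 fell: Azin1, an inhibitor of the antizyme that removes ornithine decarboxylase (-0.85 ± 0.24, SE, limma adjusted p 0.0414), P4ha1, a subunit of the prolyl hydroxylase of collagen (-0.99 ± 0.21, 0.0100), and Ckmt2, a mitochondrial creatine kinase of striated muscle (-1.37 ± 0.30, 0.0112). Beside Ckmt2, 10 heart muscle genes summed to 8245 and 11242 in C57BL/6J bleomycin lungs of 14 d, against 17702 and 18986 after saline, and 6 of the 10 fell. The part of heart tissue in the Ckmt2 value was not tested. For Azin1 and P4ha1 the C57BL/6J saline arrays of 14 d read above those of 24 h. Azin1 read 1597 and 3138 after bleomycin at 14 d, against 3992 and 4256 after saline, and 2284 and 3022 in saline 24 h. P4ha1 read 402 and 682 after bleomycin at 14 d, against 1012 and 1273 after saline, and 621 and 625 in saline 24 h. The bleomycin arrays of both genes thus overlapped the saline arrays of 24 h.

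At 14 d in BALB/c Slc6a8, the creatine transporter, rose by 0.79 ± 0.18 (SE; limma adjusted p 0.0115), reading 779 and 1123 after bleomycin, against 485 and 525 after saline. It carries creatine into cells. Slc6a8 was also called at 14 d averaged over the strains (0.65 ± 0.13, SE, limma adjusted p 0.00441). Within C57BL/6J bleomycin lungs it was 0.71 ± 0.18 higher at 14 d than at 24 h (SE; limma adjusted p 0.0240). The rise was therefore not particular to BALB/c. Ckmt1, another mitochondrial creatine kinase, rose by 0.58 ± 0.18 on one probe set (SE; limma adjusted p 0.0391) and differed by -0.47 on its other (0.169). P4hb, another subunit of prolyl hydroxylase, fell by 1.91 on one probe set (limma adjusted p 0.0251) and differed by -0.51 on the other (0.179). The effect of bleomycin at 14 d was higher in C57BL/6J than in BALB/c for Ckb (1.25), P4hb (3.01, and 0.38 and not called on its other probe set) and Slc3a2, a chain shared by amino acid transporters (1.0). It was lower for Azin1 (-1.25), P4ha1 (-1.13), Ckmt1 (-0.90, and 0.20 and not called on its other probe set) and Pts, an enzyme of tetrahydrobiopterin synthesis (-0.87). The Azin1 and P4ha1 values rest in part on the same high C57BL/6J saline arrays of 14 d. The P4hb probe set with the larger differences varied between arrays of a group. It read 1813 and 593 in C57BL/6J saline 14 d and 551 and 2200 in BALB/c saline 24 h. In BALB/c at 14 d it read 374 and 311 after bleomycin, against 1533 and 1532 after saline.

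The endothelial nitric oxide synthase Nos3 differed between strains in saline lungs of 24 h and 14 d, and its saline arrays of 72 h overlapped. At 24 h it read 385 and 235 in C57BL/6J, against 112 and 49.6 in BALB/c. At 14 d it read 435 and 444 in C57BL/6J, against 132 and 90.5 in BALB/c. The strains did not overlap at either time. At 72 h the saline arrays read 80.6 and 83.6 under the C57BL/6J label, against 67.8 and 102 under the BALB/c label, and overlapped whichever way the labels run. C57BL/6J minus BALB/c was 1.21 ± 0.30 at 24 h (SE; limma adjusted p 0.0384), with the C57BL/6J arrays that stood apart in epithelial and red cell genes on 1 side, and 1.39 ± 0.30 at 14 d (SE; limma adjusted p 0.00545). After bleomycin neither strain difference was called. Nos3 then read 96.9 and 75.2 in C57BL/6J, against 75.7 and 99.4 in BALB/c, at 24 h. At 14 d it read 334 and 256, against 85.8 and 230. The C57BL/6J change from 24 h to 14 d after bleomycin was 1.11 ± 0.30 (SE; limma adjusted p 0.0284). Averaged over the strains, 1 gene of the nitric oxide list rose at 14 d, Gch1, the first enzyme of tetrahydrobiopterin synthesis, the cofactor of nitric oxide synthases (0.49 ± 0.14, SE, limma adjusted p 0.0312). Limma called 0 of the 3 urea cycle genes tested for the bleomycin effect in either strain at 24 h or 14 d, with 0 at an unadjusted p under 0.05. Oat, which turns ornithine towards proline, was called only in BALB/c bleomycin lungs as higher at 14 d than at 24 h (0.67 ± 0.19, SE, limma adjusted p 0.0396).

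Over the 20 arrays other than saline 72 h, the 8 genes of 6460 most like Arg1 by Pearson's r of log2 values were C1qb (0.92), Tgfbi (0.91), S100a4 and Ackr3 (both 0.88), Prrc1 (0.87), Fcgr2b (0.87), Fst (0.87) and Lgmn (0.85). By Spearman's rank correlation each of these genes was less like Arg1, from 0.57 for Fst to 0.81 for Prrc1. C1qb, a chain of complement C1q, read 11211 and 4216 in C57BL/6J bleomycin lungs of 14 d, against 759 and 883 after saline. Fst, the activin antagonist follistatin, read 1453 and 1072, against 108 and 22.1. In BALB/c at 14 d C1qb read 1582 and 2069 after bleomycin, against 577 and 713 after saline, and Fst read 150 and 20.9, against 11.01 and 9.45. So C1qb was higher after bleomycin in both strains, and Fst did not exceed 366 on any array outside C57BL/6J bleomycin 14 d. For Gatm the 3 most like genes were Procr (0.93), Ifi202b (0.88) and Ocel1 (0.85). Procr, the endothelial protein C receptor, read 703 and 1099 in BALB/c bleomycin lungs of 14 d, against 563 and 547 after saline, and 469 and 364 in C57BL/6J, against 162 and 131. Ifi202b did not exceed 32.7 on any C57BL/6J array outside saline 72 h and reached 324 in BALB/c. Over both strains together Arg1 and Gatm were unlike each other (r = -0.15), and among the members Odc1 with Arg2 (0.54) and Gatm with Arg2 (0.51) were the most alike. That r also holds the higher Gatm level of BALB/c. Within C57BL/6J, outside saline 72 h, the bleomycin arrays of 72 h and 14 d were the highest in both genes. Gatm read 350 to 650 there, against at most 291 on the others. In BALB/c the bleomycin arrays of 72 h read 1285 and 1562 for Gatm but 74.7 and 112 for Arg1. These values describe arrays that share strains, treatments and scaling.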

How the data were processed

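Intensities were used as deposited, 1 linear intensity per probe set and array on 24 arrays. How the authors summarised the probes into these intensities was not given in the sources used here. Trimmed means, without the lowest and highest 2%, were 799.9 on all arrays, from which a common scaling is inferred, and array medians were 313 to 408. Groups came from the sample titles. The members and the gene lists were chosen with earlier results of these data known.

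Of 12488 probe sets, 66 controls were left out. Gene names came from the array annotation, in which 10833 of the other probe sets had 1 name, 396 several and 1193 none. Probe sets above 225.7, the 40th percentile, on at least 2 arrays were fitted with limma 3.58.1 in R 4.3.3 on log2(intensity + 92), with 1 mean per group, 12 residual degrees of freedom and a variance trend, and tested on simulated data. Where a gene other than a member had several probe sets, the brightest was used. Named genes were the members, up to 4 called genes per list and comparison, 8 genes most like Arg1 and 3 most like Gatm. The comparisons averaged over the strains at 24 h and 14 d were added after the values were seen, as were 2 alternatives that leave out pairs of arrays.

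Alternatives were other offsets (46 and 276), quantile normalization, other filters (none, or the 60th percentile), a fit without the variance trend, weighted arrays, a block for the array letter, other saline arrays as control, a fit per strain, and leaving out the saline 72 h arrays or each array.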

Additional observations from a re-analysis of the deposited data

Results flagged for a closer look

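The effect of bleomycin on Arg1 at 14 d differed between the strains by 3.76 on the log2 scale, with 4652 and 2903 in C57BL/6J bleomycin lungs, against 88.4 and 110 after saline, and 157 and 333 in BALB/c bleomycin lungs, against 90.1 and 181 after saline. Arg1 was among the members chosen with results known, so its test is not independent evidence. Limma called the difference between the effects (adjusted p 0.00244), as it did 7.43% of all 8710 probe sets, and by size it ranked 26 from the highest. It was between 3.37 and 4.14 when single arrays were left out and was called each time.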

How the results depend on the processing

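With 2 arrays a group, calls near the threshold changed with the processing, and no called difference changed sign. The count of member probe sets called for bleomycin in C57BL/6J at 24 h was 0, and it was 1, Odc1, with 3 times the offset, the filter at the 60th percentile, array weights, saline of 24 h and 14 d or of 14 d alone as the control, or without both b arrays of saline 24 h. For C57BL/6J at 14 d it was 2, and 1 with array weights. For BALB/c at 14 d it was 1, and 2 (with Arg2) without both b arrays of saline 24 h, which left 0 for the strain difference after saline at 24 h. Averaged over the strains at 14 d it was 4, 3 (without Arg2) with no filter, and 2 with array weights, with saline of 24 h and 14 d as the control or without the 4 saline 72 h arrays; at 24 h it was 0, and 1 with either other control. The change between 24 h and 14 d in C57BL/6J was called for 1, and for 2 after quantile normalization. Without single arrays the counts ranged over 0 to 1 for C57BL/6J 24 h, 0 to 0 for BALB/c 24 h, 1 to 2 for C57BL/6J 14 d, 0 to 2 for BALB/c 14 d, 1 to 1 for the strain difference of the 14 d effect, 2 to 4 for the 14 d average and 0 to 0 for the 24 h average. They ranged over 0 to 1 for C57BL/6J minus BALB/c after bleomycin or saline at 24 h, 2 to 2 and 1 to 1 at 14 d, and 1 to 3 in C57BL/6J and 0 to 1 in BALB/c for 14 d minus 24 h. The average 72 h difference of Arg1 ran between 1.27 and 1.49 without single arrays and 1.01 and 1.55 under the other alternatives. The array letters did not pair the arrays: over 66 pairs of groups the correlation of same-letter deviations was -0.285 to 0.309, median 0.00566. With the letter as a replicate block the counts were 2 for C57BL/6J and 1 for BALB/c at 14 d, the same as without it, and no other count moved either. Other saline controls were not run for the saline strain comparisons, which they would replace. The causes of these changes were not tested.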
